A study of Mus musculus with 6 samples.

Results

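The genes described here carry the symbols of translation initiation factors, Eif and a digit. They were followed in whole brain of mice in which neurons could lose HuR. HuR is an RNA-binding protein encoded by Elavl1 that controls the stability and translation of many messages. Of 22180 genes with a probeset of their own on the Affymetrix Mouse Gene 2.0 ST array, 50 carried such a symbol, with the sex-linked Eif2s3x and Eif2s3y left out by the rule, and each was read by its brightest probeset. A test across 16635 genes included 48 of them. The other 2, the oocyte form of the cap-binding protein Eif4e1b and Eif2c5, lay under the brightness limit, which removed the dimmest 25% of genes. Several factors, among them Eif1, Eif2s1, Eif3g and Eif4g1, are not analysed here.

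The study profiled total brain RNA on 6 arrays, 3 a group. Both groups carried Thy1Cre-ERT2-EYFP, a Cre recombinase that tamoxifen switches on, with EYFP as its reporter, under the Thy1 promoter, which is active in neurons. The 3 controls had 1 floxed HuR allele (Thy1Cre-ERT2-EYFPHuRf/+, called WT in the labels), and the 3 knockouts had both alleles floxed (Thy1Cre-ERT2-EYFPHuRf/f, called KO). Mice of either sex received tamoxifen at 10 and 11 weeks of age and were 91 days old when the brain was taken, and the reporter is described as strongly induced by 21 days from the first dose. The controls can thus lose 1 allele, the gene is spared outside neurons, and every array comes from a brain with Cre and tamoxifen.

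Translation starts when eIF2, loaded with initiator methionyl-tRNA, joins the small ribosomal subunit with eIF1, eIF1A, eIF3 and eIF5, and when eIF4F, made of the cap-binding protein eIF4E, the scaffold eIF4G and the helicase eIF4A, brings in the message. Initiation is slowed through kinases that phosphorylate eIF2 and so block its exchange factor eIF2B, and through 4E-binding proteins that sequester eIF4E. Neurons use both switches in synaptic plasticity and in stress, and inherited defects of eIF2B cause a white matter disease of the brain.

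Levels are given as log2(intensity + 1) after quantile normalization, for control 1, 2 and 3 and then knockout 1, 2 and 3, and a log2 fold change is knockout minus control. Precision is limited by 3 arrays a group, and the labels number the samples without stating that each is a separate animal. The p-values thus measure only the spread between these arrays, which may be in part technical. Elavl1, the targeted gene, was at 8.27, 8.01 and 8.53 in control and 8.22, 8.17 and 8.27 in knockout brain. Its log2 fold change was -0.05 ± 0.15 (SE, n = 3 each), with a 95% confidence interval of -0.39 to 0.29 and a two-sided exact permutation p of 0.7, where the smallest p this design allows is 0.1. Its 1 probeset lies at an unknown place relative to the deleted part, so it does not check the labels. The arrays numbered 3 stood apart from the other 4. Xist, which coats the inactive X in female cells, was at 7.69 in control 3 and 7.68 in knockout 3, against 2.52 to 2.79 elsewhere. Each group thus holds 1 array that reads as female, from another animal than the rest of its group. All 10 neuronal markers of the fixed list were measured, the dimmest value being an intensity of 56.5, as were all 7 astrocyte markers and 8 of 9 oligodendrocyte markers.

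No initiation factor gene passed the test between knockout and control brain. With limma and Benjamini-Hochberg adjustment over all genes, 0 of 48 were called at an adjusted p of 0.05, as were 0 of 16635 genes, or 0%. At an unadjusted p under 0.05 there were also 0 members, where 1.7% of all genes lay under it, 0.932% higher and 0.763% lower in knockout brain. With arrays of the same number treated as pairs, which no label states, 0 members were called. In that limma fit 2, Eif2b2 and Eif4a3, had an unadjusted p under 0.05, both on the higher side. The share of all genes was 4.85% (2.81% higher and 2.03% lower). The 48 log2 fold changes ran from -0.16 for Eif4a3l1 to 0.23 for Eif4a3. Their median was 0.02 and that of all genes was 0.01, and 28 lay above 0, or 58.3%, against 54.8% of all genes. With arrays centred on their median, 36 of 48 lay above 0, at a median of 0.07 beside 0.05 for all genes.

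Most differences were bounded on this log2 scale, which understates changes of dim genes. The 95% confidence interval lay inside a 1.5-fold difference either way for 42 of the 48 genes, or 87.5%, against 80.6% of all genes. The 6 with wider intervals were Eif3e, Eif3h, Eif4a3, Eif4e2, Eif4e3 and Eif4g3. The 42 include the dim Eif4a3l1, with intensities of 12.1 to 19.7 where array medians were 13.4 to 14.6. The median standard error was 0.13 for the members and 0.14 for all genes. In a bulk sample, fewer cells of a type and less RNA per cell cannot be told apart, and an interval for whole brain says nothing of a change in a small share of its cells.

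**Figure D1:**
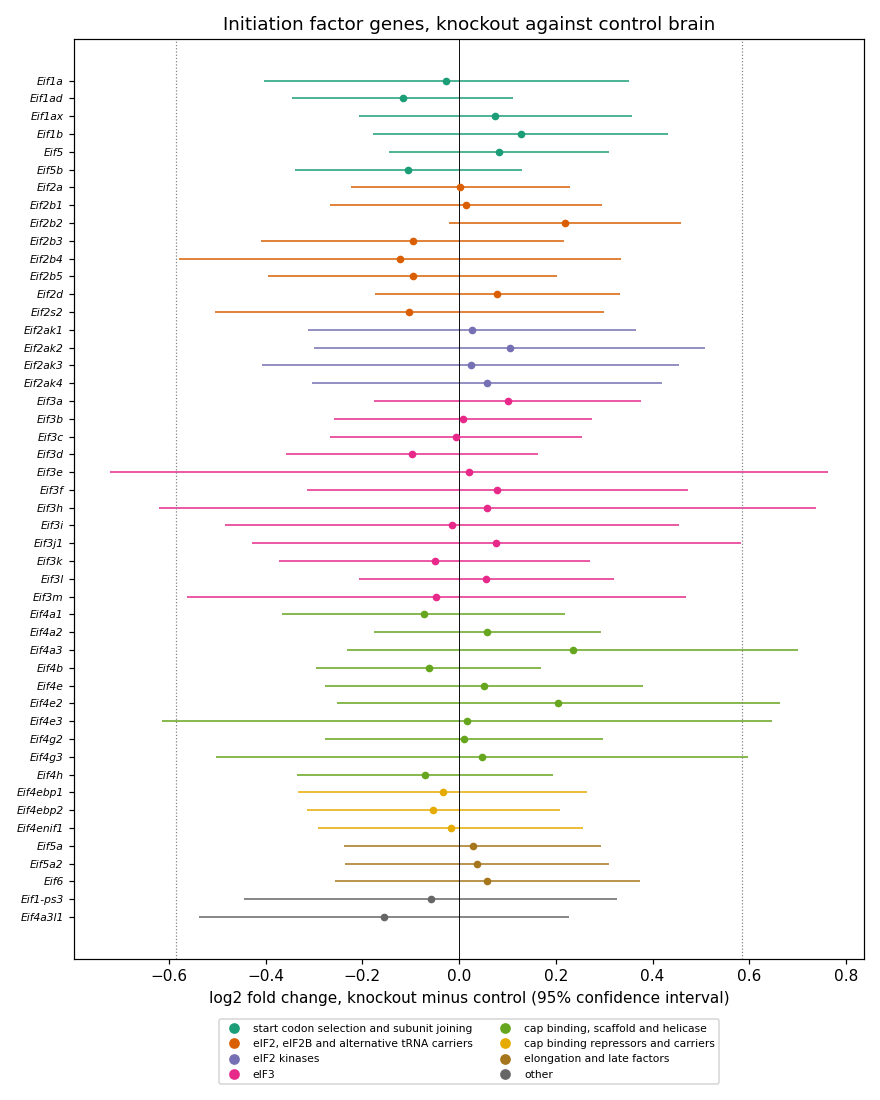
Log2 fold change of knockout over control (x axis) for the 48 tested initiation factor genes (rows, coloured by role), with 95% confidence intervals from limma over 3 and 3 arrays; dotted lines mark a 1.5-fold difference. All intervals include 0, and 42 lie inside the dotted lines.

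Groups did not overlap for 3 of the 48 genes, or 6.25%, against 5.7% of all genes, so the share of members is near the background. Of the 3, 2 were higher in knockout brain (3.14% of all genes) and 1 was lower (2.55%). In this and the paragraphs on each role below, differences are given as values, since none passed the test. Eif2b2, the beta subunit of the eIF2 exchange factor, was at 6.15, 6.05 and 6.23 in control and 6.35, 6.33 and 6.41 in knockout brain. The groups were apart, and the difference was 0.20, 0.28 and 0.18 within the numbers 1, 2 and 3. The log2 fold change was 0.22 ± 0.10 (SE), or 1.16-fold, with an interval of -0.02 to 0.46 and the smallest p of the members (limma, unadjusted p = 0.0672, adjusted p = 1; with pairs 0.0402 and 0.984).

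Eif5, which activates the GTPase of eIF2 once the start codon is found, was at 9.26, 9.29 and 9.27 in control and 9.30, 9.35 and 9.41 in knockout brain. The groups are apart by little: the highest control and the lowest knockout are 9.29 and 9.30. Its log2 fold change was 0.08 ± 0.10 (SE). Eif1ad, a nuclear protein with an eIF1A-like domain, was at 6.40, 6.30 and 6.27 in control and 6.22, 6.185 and 6.21 in knockout brain. All 3 knockout arrays lay below the controls, at a log2 fold change of -0.12 ± 0.10 (SE). The groups of Eif1ad overlapped without quantile normalization and with median centring, and those of Eif2b2 and Eif5 did not.

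**Figure D2:**
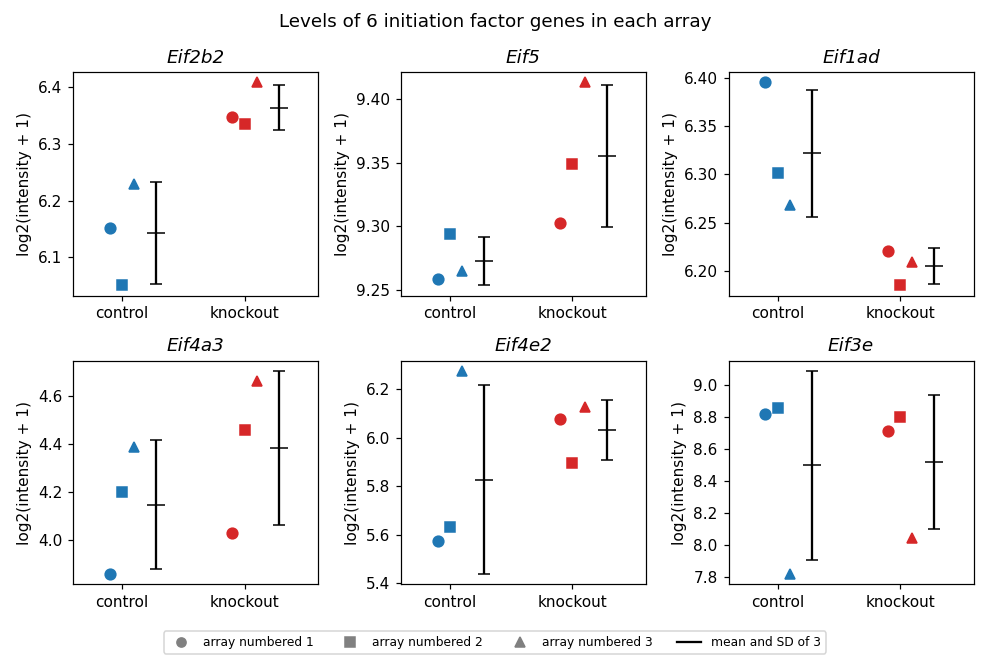
Log2(intensity + 1) (y axis, a different range in each panel that does not start at 0) of 6 genes in control (blue) and knockout (red) arrays, with symbols for the array number and bars for the mean and SD of 3. Eif2b2, Eif5 and Eif1ad have groups that do not overlap, those of Eif4a3 and Eif4e2 overlap, and Eif3e is low in both arrays numbered 3.

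The sequences around the annotated starts of these 3 genes are shown because theirs were the groups that did not overlap. They were taken from RefSeq (build GRCm38.p6), each with 60 bases before the start and 30 after it, 5′ to 3′, so the start is base 61. Capitals mark the ETS-factor motif CCGGAAG or its reverse complement CTTCCGG. The windows are Eif2b2 at chr12:85219421-85219510 (plus strand), Eif1ad at chr19:5366753-5366842 (plus strand) and Eif5 at chr12:111538041-111538130 (plus strand).
Eif2b2: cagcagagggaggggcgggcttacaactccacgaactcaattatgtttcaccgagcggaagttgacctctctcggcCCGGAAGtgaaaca
Eif1ad: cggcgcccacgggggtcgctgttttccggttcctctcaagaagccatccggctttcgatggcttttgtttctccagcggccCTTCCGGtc
Eif5: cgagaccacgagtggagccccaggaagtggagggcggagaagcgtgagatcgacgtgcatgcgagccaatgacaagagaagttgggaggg
The windows of Eif2b2 and Eif1ad held the motif downstream of the start, and that of Eif5 did not. This is a match of letters, not a measured site.

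Among the start codon and subunit joining factors, 3 of 6 lay above 0. Eif1b, a close relative of the scanning factor eIF1, differed by 0.13 ± 0.13 (SE) on the log2 scale, and Eif5b, the GTPase that joins the large subunit, by -0.10 ± 0.10. Eif5b was at 7.06, 6.996 and 7.06 in control and 7.02, 6.88 and 6.91 in knockout brain, so knockout 1 lay among the controls. Eif1ax, which lies on the X chromosome and encodes eIF1A, was at 9.47 in control 3 and 9.69 in knockout 3 and between 9.63 and 9.81 in the other 4 arrays.

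The eIF2 group, with its beta subunit Eif2s2, the 5 subunits of eIF2B and the alternative tRNA carriers Eif2a and Eif2d, had 4 of 8 genes above 0 and a median of -0.05. The eIF2B subunits had values on both sides of 0. Beside Eif2b2 at 0.22, the alpha subunit Eif2b1 was at 0.01, and Eif2b3, Eif2b4 and Eif2b5 were at -0.10, -0.12 and -0.10, with standard errors of 0.13, 0.20 and 0.13. Eif2b4 was at 4.86, 5.25 and 4.52 in control and 4.89, 4.82 and 4.55 in knockout brain, with control 2 the highest and both arrays numbered 3 the lowest. Eif2s2 was at 5.91 in knockout 2 against 6.05 to 6.51 in the other 5 arrays. Eif2d, which can load tRNA onto the ribosome without GTP, had a value of 0.08 ± 0.11 (SE), and Eif2a 0.002 ± 0.10.

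The 4 kinases that phosphorylate eIF2 all lay above 0, at 0.02 to 0.10, each within its standard error of 0.15 to 0.18. Eif2ak2, the kinase PKR that senses double-stranded RNA, was at 5.14, 4.63 and 4.74 in control and 4.99, 5.13 and 4.70 in knockout brain. Its value of 0.10 rests on the arrays numbered 2, where knockout minus control was 0.50, against -0.15 and -0.04 for the numbers 1 and 3. Eif2ak3, the endoplasmic reticulum kinase PERK, had 0.02 ± 0.18 (SE), Eif2ak1, the heme-regulated kinase, 0.03 ± 0.15, and Eif2ak4, the amino acid sensor GCN2, 0.06 ± 0.16. Arrays read RNA, so the phosphorylation of eIF2 was not measured.

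The eIF3 complex, the large scaffold on the small subunit, had 7 of 12 genes above 0 at a median of 0.01, within -0.10 and 0.10. The values with the smallest p were -0.10 ± 0.11 (SE) for Eif3d, which can itself bind caps, and 0.10 ± 0.12 for Eif3a, the largest subunit. Eif3f and Eif3l followed at 0.08 ± 0.17 and 0.06 ± 0.11. A second probeset of Eif3d was dim, with means of 3.37 (SD 0.0680) for control and 3.31 (SD 0.0765) for knockout arrays. Eif3j1 was at 5.42 in control 2 against 5.81 to 6.22 elsewhere. It has a near-identical copy, Eif3j2, so which of the pair its probes read cannot be told apart.

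The cap-binding, scaffold and helicase genes had 7 of 10 above 0, at a median of 0.03. Eif4a3, the helicase of the exon junction complex, had the highest value of all members, 0.23 ± 0.20 (SE). It was at 3.86, 4.20 and 4.39 in control and 4.03, 4.46 and 4.66 in knockout brain. The groups overlapped, with knockout 1 below control 2. It was higher in knockout brain within each number, by 0.17, 0.26 and 0.27, though no label states this pairing. Its p was 0.276 without pairs and 0.0312 with them (limma, adjusted p = 1 and 0.984). With 1 array left out the log2 fold change ran from 0.090 without control 1 and 0.096 without knockout 3 to 0.35 without control 3 and 0.41 without knockout 1, and array weights gave 0.15. The gene is dim, with intensities of 13.2 to 24.2 where array medians were 13.4 to 14.6. Its copy Eif4a3l1, also dim, had the opposite sign, at -0.16 ± 0.16 (SE), and how far each probeset reads the other gene's RNA was not tested.

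Eif4e2, a cap-binding protein that represses translation, was at 5.57, 5.63 and 6.28 in control and 6.08, 5.89 and 6.13 in knockout brain, a log2 fold change of 0.21 ± 0.20 (SE). Control 3 was the highest array, and without both arrays numbered 3 the value was 0.38 ± 0.12 (SE), with an unadjusted p under 0.05 (limma, adjusted p = 0.932), the only member to do so there, where 5.13% of all genes did. With 1 array left out it ran from 0.078 without control 1 to 0.43 without control 3. Knockout minus control was 0.50 and 0.26 within the numbers 1 and 2 and -0.15 within number 3, and the paired p was 0.187 (limma, adjusted p = 0.984). Eif4h and Eif4b, which stimulate the helicase, were at -0.07 ± 0.11 and -0.06 ± 0.10 (SE). Eif4e itself was at 9.48, 9.52 and 9.21 in control and 9.54, 9.58 and 9.25 in knockout brain, with a difference of 0.06, 0.05 and 0.04 within the numbers 1, 2 and 3. Eif4a1, the main helicase, was at 13.28, 13.28 and 12.99 against 13.21, 13.13 and 12.99, and its second, dimmer probeset differed by -0.04. Eif4e1b was at 3.06 to 3.30 on all 6 arrays.

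The 3 repressors and carriers of eIF4E lay below 0, between -0.05 and -0.02. They are Eif4ebp1 and Eif4ebp2, which block eIF4E until mTOR phosphorylates them, at -0.03 ± 0.13 and -0.05 ± 0.11 (SE), and Eif4enif1, which carries eIF4E into the nucleus, at -0.02 ± 0.12. With arrays centred on their median all 3 turned positive. The 3 late factors lay above 0, at 0.03 ± 0.11 for Eif5a, which is modified with hypusine and helps elongation, 0.04 ± 0.12 for its relative Eif5a2 and 0.06 ± 0.14 for Eif6, which keeps the ribosomal subunits apart. The pseudogene Eif1-ps3 was at -0.06 ± 0.17 (SE). Eif2c5, listed in RefSeq as a long noncoding RNA, carries an older Argonaute-type symbol and no initiation role by name. It was at 2.79 to 3.37 on all arrays.

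No label states that arrays of the same number are pairs. Taken by number, knockout minus control had the same sign in all 3 for 11 of 48 genes, or 22.9%, against 24.9% of all genes. These were Eif1b, Eif2b2, Eif3a, Eif4a3, Eif4e and Eif5 on the higher side and Eif1ad, Eif2b5, Eif3d, Eif4a3l1 and Eif5b on the lower.

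The initiation factor genes differed more widely by array number than by genotype, with gaps from -0.87 to 0.61 between the arrays numbered 3 and the other 4. Both arrays numbered 3 lay below the other 4 for 20 of 48 genes, or 41.7%, where this held for 20.6% of all genes. They lay above the other 4 for 11 genes, or 22.9%, against 23.4% of all genes. The median deviation from a gene's mean was -0.08 in control 3 and -0.07 in knockout 3, and 0.05 in control 1 and knockout 1, 0.02 in control 2 and -0.001 in knockout 2. The number is a label and the arrays numbered 3 differ also in sex, so which of these goes with the levels cannot be told apart, and no test was made.

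**Figure D3:**
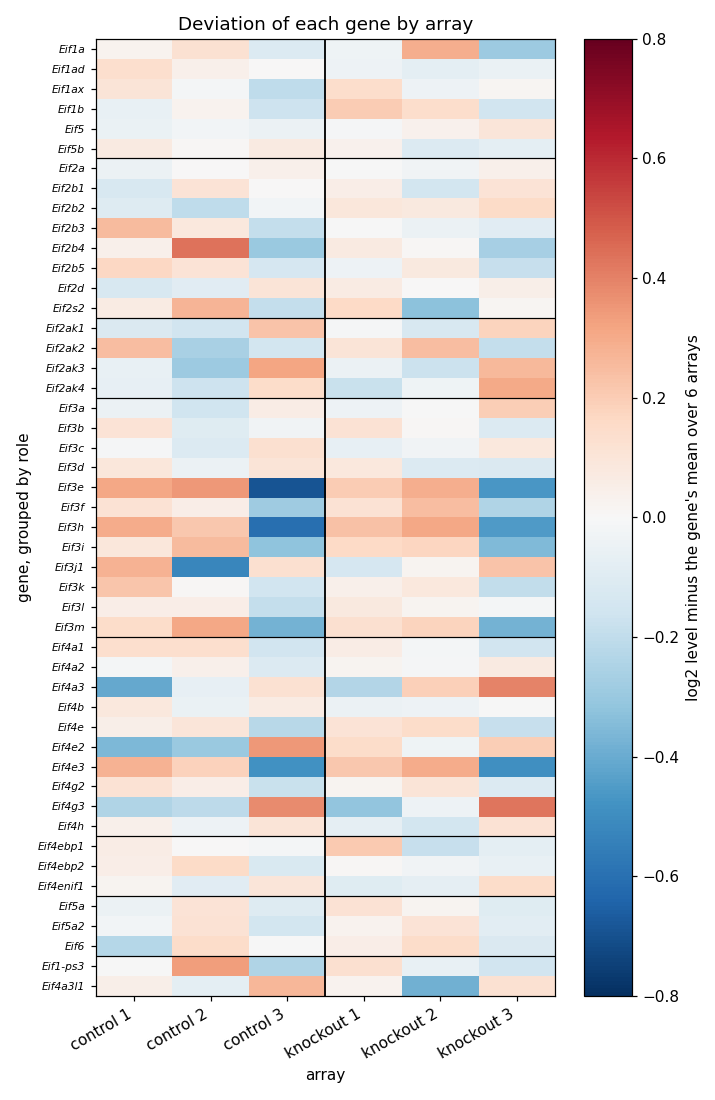
Log2 level of each of the 48 genes minus its mean over 6 arrays (colour, blue below and red above the mean), with arrays in columns and genes in rows grouped by role. The columns control 3 and knockout 3 resemble each other, with blue for Eif3e, Eif3h, Eif3m and Eif4e3 and red for Eif4g3 and Eif2ak3.

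The eIF3 subunits divided along this line. Eif3e was at 7.82 in control 3 and 8.04 in knockout 3, against 8.71 to 8.86 in the other 4 arrays, a gap of -0.87. Eif3h was at 8.88 and 9.03 against 9.70 to 9.80, and Eif3m at 7.44 and 7.45 against 7.96 to 8.13. Eif3f, Eif3i, Eif3k and Eif3l were also below, with gaps of -0.40, -0.51, -0.26 and -0.15. Eif3a and Eif3c, on which the core of the complex is built, lay above, with gaps of 0.19 and 0.16, and Eif3b, Eif3d and Eif3j1 overlapped. Between genotypes the log2 fold changes of Eif3e, Eif3h and Eif3m were 0.02 ± 0.32, 0.06 ± 0.29 and -0.05 ± 0.22 (SE), the large errors holding the gap between arrays.

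Other roles split likewise. Of the cap-binding proteins, Eif4e3 was at 7.70 and 7.69 in control 3 and knockout 3 against 8.37 to 8.48, and Eif4e at 9.21 and 9.25 against 9.48 to 9.58, while Eif4e2 lay above. Of the scaffolds, Eif4g3 was at 8.84 and 8.89 against 8.15 to 8.42, and Eif4g2, which supports initiation without eIF4E, was below with a gap of -0.22. Between genotypes Eif4e3 and Eif4g3 were at 0.02 ± 0.27 and 0.05 ± 0.24 (SE). Of the kinases, Eif2ak1, Eif2ak3 and Eif2ak4 were above, with gaps of 0.31, 0.43 and 0.33, and Eif2ak2 overlapped. Of the eIF2B subunits, Eif2b3, Eif2b4 and Eif2b5 were below, with gaps of -0.21, -0.42 and -0.24.

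**Figure D4:**
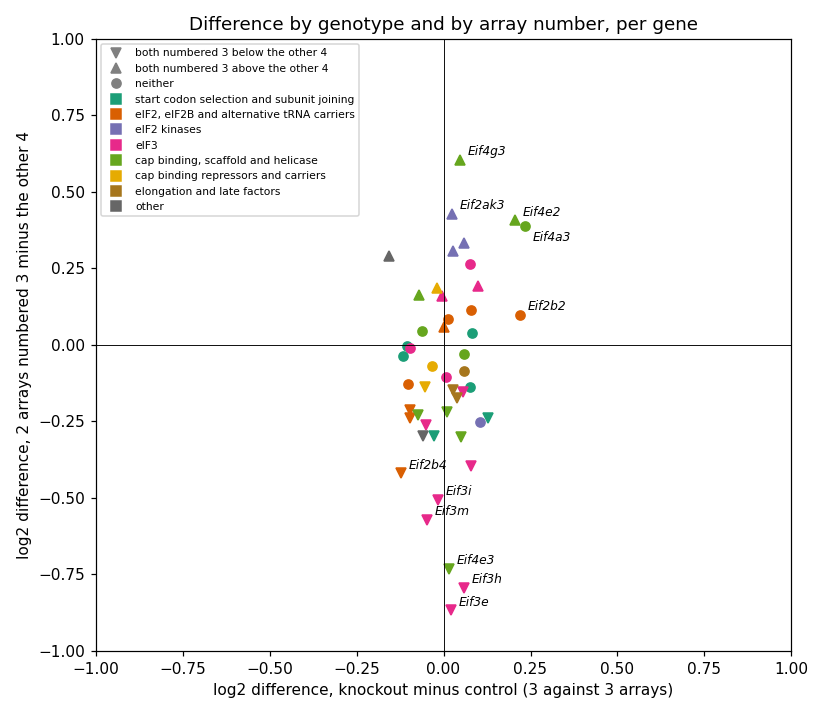
Each tested gene by its knockout minus control difference (x axis, log2) and by the mean of the 2 arrays numbered 3 minus that of the other 4 (y axis, log2), with equal axis ranges, coloured by role. Points spread from -0.87 to 0.61 along the y axis and from -0.16 to 0.23 along the x axis; triangles mark genes with both arrays numbered 3 below or above the rest.

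Eif4a2 had 3 probesets that differed in this respect. The brightest was at 10.04 in control 3 and 10.22 in knockout 3, beside 10.13 to 10.19 in the other arrays. A second was at 7.04 and 7.14 in the arrays numbered 3 against 8.30 to 8.69 elsewhere. The dimmest was also lower there, at 4.94 in control 3 and 4.92 in knockout 3 against 5.10 to 5.29 elsewhere. The knockout minus control differences of the 3 probesets were 0.06, 0.02 and -0.12.

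Cell type markers differed with the array number as well. In the arrays numbered 3, 8 of 10 neuronal markers lay above the other 4, with a mean level of 9.84 in both, against 9.36 to 9.49. Of 5 endothelial markers 4 lay above (5.47 and 5.54 against 4.13 to 4.56), and of 6 meningeal fibroblast markers 5 lay below (5.55 and 5.64 against 6.10 to 6.34), as did 5 of 6 measured microglial markers (6.23 and 6.32 against 6.65 to 6.69) and 4 of 7 astrocyte markers (9.15 and 9.21 against 9.29 to 9.50). Of 8 measured oligodendrocyte markers 0 lay below and 1 above, and of 5 choroid plexus markers 1 lay below. No measured marker was listed at 0, but some were dim. The lowest intensity was 4.72 in the endothelial and 8.70 in the fibroblast list, where array medians were 13.4 to 14.6. The endothelial mean includes Ly6c1, which lay under the brightness limit. The part of these marker differences in the levels of the initiation factors was not tested.

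Between genotypes the mean level of the neuronal markers was 9.36 to 9.84 in control and 9.48 to 9.84 in knockout brain, with a median log2 fold change of 0.05. The oligodendrocyte markers had means of 8.65 to 8.95 in control and 8.61 to 8.70 in knockout brain and a median of -0.12. At an unadjusted p under 0.05 (limma) 1 of 8 was lower in knockout brain, where 0.763% of all genes were. Without overlap 4 of 8 were lower, where 2.55% of all genes were. Opalin, a myelin membrane protein, was at 7.91, 7.32 and 7.32 in control and 6.95, 6.81 and 7.05 in knockout brain, a log2 fold change of -0.58 ± 0.18 (SE; limma, unadjusted p = 0.0132, adjusted p = 1). The other 3 were Cldn11 at -0.25 ± 0.12, Mal at -0.20 ± 0.11 and Mog at -0.19 ± 0.13 (SE). Mbp and Mobp, also myelin genes, were at 0.01 ± 0.11 and -0.02 ± 0.10. The medians of the other lists were 0.07 for astrocytes, 0.03 for microglia, -0.07 for endothelial cells, 0.15 for meningeal fibroblasts and 0.06 for choroid plexus. Col3a1, a fibroblast collagen, was the only marker of these whose groups did not overlap, at 0.25 ± 0.11 (SE). Of all genes, 3.14% were higher in knockout brain without overlap. No marker passed the adjusted threshold (limma), and the part of these differences in the initiation factor values was not tested.

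Start windows that hold a motif are shown for genes on both sides of the division by array number. Windows without one, such as those of Eif3k below and Eif4g3 above, are not shown. Those shown are a selection, since windows of Eif2b4, Eif5a and Eif5a2 below and of Eif4e2 and Eif4enif1 above also hold the ETS motif. Capitals mark the ETS motif as above or, in Eif3f, the YY1 motif AAGATGGC. The genes are Eif3m at chr2:105016998-105017087 (minus strand), Eif3l at chr15:79075163-79075252 (plus strand), Eif3f at chr7:108934355-108934444 (plus strand), Eif2ak1 at chr5:143817732-143817821 (plus strand) and Eif3c at chr7:126566337-126566426 (minus strand).
Eif3m: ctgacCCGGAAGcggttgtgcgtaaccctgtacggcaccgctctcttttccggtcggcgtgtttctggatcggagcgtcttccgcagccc
Eif3l: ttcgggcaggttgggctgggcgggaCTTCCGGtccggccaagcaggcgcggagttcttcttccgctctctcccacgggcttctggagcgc
Eif3f: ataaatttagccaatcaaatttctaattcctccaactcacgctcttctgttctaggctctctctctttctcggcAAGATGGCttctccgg
Eif2ak1: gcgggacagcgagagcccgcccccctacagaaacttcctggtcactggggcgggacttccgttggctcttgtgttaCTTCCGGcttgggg
Eif3c: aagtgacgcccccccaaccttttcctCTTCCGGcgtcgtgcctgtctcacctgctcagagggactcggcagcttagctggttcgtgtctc
Eif3m, Eif3l and Eif3f were low in both arrays numbered 3, and Eif2ak1 and Eif3c were high. Each window shown holds a motif, so these windows do not compare the sides. In the full RefSeq windows of 300 bases (250 before and 50 after a start), found for 39 of the 50 genes, CCGGAAG or CTTCCGG occurred in 15 genes, or 38.5%, against 12.9% of 17491 protein-coding genes and 9.93% of all 27025 genes. Counted by window, it was in 34.6% of 52 member windows and 8.86% of all 32851. Of the 20 genes that lay below in the arrays numbered 3, only 12 had a window, and Eif3e, Eif3h and Eif4e3 had none. The ETS motif was present in 7 of these 12 and in 4 of 11 that lay above. Counted by window, the sides had the same share, 38.9% of 18 windows below and 38.9% of 18 above. AAGATGGC or its reverse complement GCCATCTT was found in Eif3f, Eif4a1 and Eif4e, or 7.69% of the genes with a window, against 3.57% of protein-coding genes; by window the shares were 5.77% and 2.75% of all. These 3 genes were among the 12 with a window that lay below in the arrays numbered 3, and 0 of the 11 that lay above held the motif. The division comes from these same arrays, and no test was made. The motifs do not overlap each other in the windows shown and both strands were searched. Eif1-ps3, Eif1a, Eif2b3, Eif3e, Eif3h, Eif3i, Eif4e1b, Eif4e3, Eif4ebp1, Eif4g2 and Eif6 had no window in the table.

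At the adjusted threshold 0 of 27 tested regulators of initiation passed in either direction (limma), beside 0% of all genes. At an unadjusted p under 0.05 there were also 0, beside 1.7% of all genes. The regulators had 14 genes above 0 and a median of 0.02. Their smallest p values belonged to Paip2b, which displaces the poly(A)-binding protein, at 0.13 ± 0.10 (SE), the helicase Ddx3x at -0.17 ± 0.17, the mTOR subunit Mlst8 at -0.09 ± 0.10 and Mknk2, a kinase of eIF4E, at 0.15 ± 0.18. Paip2b was at 5.89, 5.90 and 5.93 in control and 6.03, 6.08 and 5.99 in knockout brain, without overlap. Of all genes, 3.14% were higher in this way. Ddx3x was at 9.26 in control 3 and 9.23 in knockout 3 against 8.72 to 9.02 elsewhere, so its error holds that gap. Without both arrays numbered 3 its log2 fold change was -0.23 ± 0.11 (SE).

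Of 15 genes around eIF2 phosphorylation, 0 passed in either direction (limma, 0 also unadjusted), beside 0% and 1.7% of all genes. Of the 15, 8 lay above 0, at a median of 0.009. Chac1, a glutathione-degrading target of ATF4, was at 5.17, 5.29 and 5.17 in control and 4.94, 5.14 and 5.15 in knockout brain. Its log2 fold change was -0.13 ± 0.11 (SE), without overlap, where 2.55% of all genes were lower in this way. Atf5, a stress transcription factor, was at -0.11 ± 0.11, Ppp1r15b, which directs the phosphatase to eIF2, at 0.13 ± 0.13, and Sesn2, a stress sensor upstream of mTOR, at -0.12 ± 0.14. Of 14 elongation and termination genes, 0 passed (limma, 0 also unadjusted), beside the same 0% and 1.7% of all genes. Of the 14, 7 lay above 0, at a median of -0.001. Dhps and Dohh, the enzymes that make the hypusine of eIF5A, were at -0.14 ± 0.12 and -0.09 ± 0.12 (SE), and the release factors Gspt2 and Gspt1 at -0.13 ± 0.12 and 0.09 ± 0.12.

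**Figure D5:**
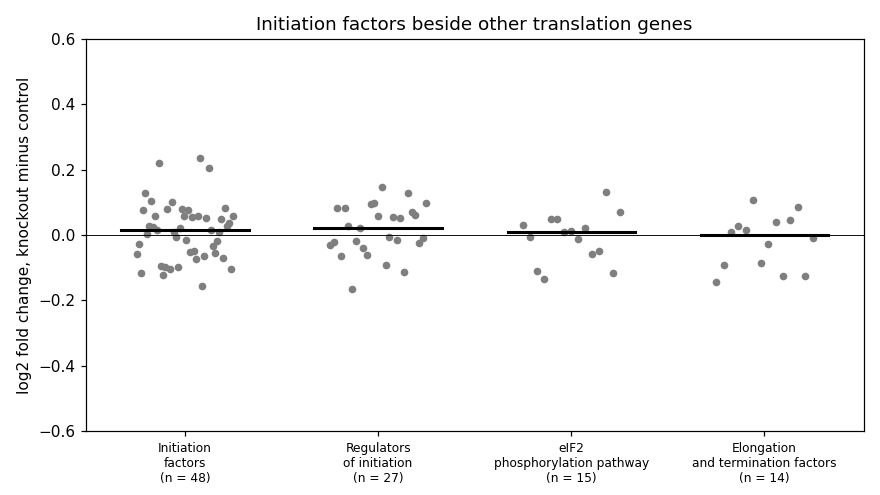
Log2 fold change of knockout over control (y axis) of each tested gene (points) in the initiation factors and 3 other translation gene lists, with the list median as a bar. Medians lie between -0.001 and 0.02, and no point passed the adjusted threshold.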

How the data were processed

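Total brain RNA (TRIzol, 150 ng, Affymetrix WT Plus labelling) was hybridised to Mouse Gene 2.0 ST arrays, per the labels' protocols. The deposited values are intensities, not logged, of 41340 probesets. Per the submitters' processing notes the tool was MAS5, with settings not given in the sources used here. Here values were transformed as log2(intensity + 1), and quantile normalized because array medians differed by 0.12. Probesets with 1 symbol (23521 of 25335 listed) gave 22180 genes, each read by its brightest probeset, and genes under the 25th percentile were left out. The genotypes were compared by limma 3.58.1 (two-sided, without pairs) in R 4.3.3. Fold changes on this scale understate changes of dim genes. Plots used matplotlib 3.10.9. The procedure was checked on simulated data with deviations drawn independently for each array. The check thus does not cover deviations that arrays share, as those numbered 3 did.

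The members, roles, lists and tests were chosen with earlier results of these data known. In each role the text names up to 4 genes with the smallest p, those with groups apart and those under the brightness limit; Eif2a, Eif2b1, Eif2b4, Eif4a2, Eif3e, Eif3h, Eif3m, Eif4e3, Eif4g3 and the levels of some other members were added after the values were seen. As a check of pairing, same-numbered arrays deviated from their groups together, with correlations of 0.31 (number 1), 0.37 (number 2) and 0.75 (number 3), above the limit of 0.1. No label states the pairing, and arrays 1 and 2 crossed correlated as well (0.40 and 0.37). Deviations in a group sum to 0, so one shared by the arrays numbered 3 also raises correlations between groups among arrays 1 and 2. The check thus cannot single out pairs for the numbers 1 and 2. Alternatives covered normalization, filter, pseudocount, probeset rule, variance model, weights, pairs and left-out arrays. All 50 members matched RefSeq (GRCm38.p6) by gene identifier.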

Additional observations from a re-analysis of the deposited data

How the results depend on the processing

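No gene passed the adjusted threshold under any of the 16 alternatives, over all genes or among the initiation factors. The count of members at an unadjusted p under 0.05 was 0 in the reported comparison, 2 with the replicate number as a block (pairing), 1 with a pseudocount of 16, 1 under array weights, 1 when both arrays numbered 3 were left out, and 0 to 1 with 1 array left out. The shares of all genes were 4.85% with the block, 1.29% with the pseudocount of 16 and 4.54% under array weights. They were 5.13% without both arrays numbered 3 and 0.98% to 3.45% with 1 array left out. The block changed no other call. Groups did not overlap for 14 members without both arrays numbered 3, where 2 arrays a group part more easily (34.7% of all genes), and for 3 to 11 with 1 array left out (11% to 21.2% of all genes). The median over members stayed between -0.032 and 0.072. Elavl1 turned positive with arrays centred on their median (0.014), under array weights (0.025) and when both arrays numbered 3 were left out (0.058), and ran from -0.18 to 0.080 with 1 array left out; the cause was not tested. Of the 37 members named with a fold change, 15 kept their sign throughout, as did 11 of 12 other pathway genes. With arrays centred on their median the signs turned for Eif1-ps3 (0.0042), Eif3m (0.019), Eif4ebp1 (0.0046), Eif4ebp2 (0.015) and Eif4enif1 (0.053; 0.017 with values as deposited), with array weights for Eif2a (-0.00049), Eif2b1 (-0.017), Eif3e (-0.013) and Eif4ebp1 (0.012), with the mean of all probesets for Eif4a2 (-0.012), and without both arrays numbered 3 for Eif2b1 (-0.033), Eif3e (-0.081), Eif3l (-0.0048) and Eif4a2 (-0.0028). With 1 array left out, values crossed 0 for Dohh from -0.16 to 0.0085, Eif1-ps3 from -0.20 to 0.093, Eif2a from -0.022 to 0.023, Eif2ak1 from -0.056 to 0.15, Eif2ak3 from -0.12 to 0.19, Eif2ak4 from -0.078 to 0.16, Eif2b1 from -0.047 to 0.090, Eif2b3 from -0.22 to 0.0061, Eif2b4 from -0.30 to 0.064, Eif3e from -0.32 to 0.26, Eif3f from -0.045 to 0.22, Eif3h from -0.23 to 0.30, Eif3l from -0.026 to 0.10, Eif3m from -0.25 to 0.13, Eif4e3 from -0.22 to 0.27, Eif4ebp1 from -0.15 to 0.048, Eif4ebp2 from -0.13 to 0.010, Eif4enif1 from -0.095 to 0.028, Eif4g3 from -0.15 to 0.25, Eif5a from -0.022 to 0.090, Eif5a2 from -0.028 to 0.11, Eif6 from -0.042 to 0.15. Signal limits Eif4a3 and Eif4a3l1, which lie near the array medians.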
